A study of Mus musculus with 2 samples.

Results

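The Ly6 family genes described here are 7 neighbours on mouse chromosome 15, Ly6a, Ly6c1, Ly6c2, Ly6d, Ly6e, Ly6g and Ly6i, chosen by name out of 32285 genes in the count tables. Their RNA was counted in CD45+ cells of the adrenal gland from 7-week-old C57BL/6 mice, in 1 library from female mice and 1 from male mice. CD45 marks leukocytes, and cells were sorted as live (negative for the dye DAPI) before droplet capture and 3′ sequencing. How many animals went into a library is not given in the sources used here. With 1 library per sex there is no replicate error, so no test was made between sexes, and a difference between the libraries cannot be told apart from a difference between the sexes. Intervals in the text are exact 95% intervals (Poisson for a level, conditional binomial for a ratio, Clopper-Pearson for a share) and cover counting error only.

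Ly6 proteins are small, cysteine-rich proteins of the Ly6/uPAR superfamily, most of them tethered to the outer membrane leaflet by a GPI anchor. Immunologists use several of them as surface markers: Ly6a is Sca-1, Ly6c1 and Ly6c2 together carry the Ly-6C epitope that separates classical from nonclassical monocytes, and Ly6g is the neutrophil antigen recognised by the antibody 1A8. Ly6e is widely expressed and interferon-inducible, and Ly6d is a marker of the B cell lineage.

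After filtering, 3694 female and 2449 male cells were analysed, with 15045146 and 9035910 UMIs in all (unique molecular identifiers, each standing for 1 captured RNA molecule), the median cell holding 3489.5 and 3008 of them. Levels are raw UMIs summed over the cells of a class in 1 library and divided by all UMIs of those cells, and are given as CPM, that is, UMIs per 1000000 UMIs of the class. Classes came from 21 graph clusters made without the Ly6 genes and named from other markers, so each name stands for cells that resemble that type. Of the macrophage clusters, 1 was Lyve1-high, 1 was Aldh1a2-high, and the 3 others are called other macrophages here. Among the cells, all labelled CD45+, 50 female and 56 male cells formed an endothelial cluster with Kdr and Plvap. These cells also held macrophage marker RNA, given below with Ly6c1. A cluster of 67 female and 138 male cells with a median of 788 and 675 UMIs stayed unnamed, as did 1 that mixed Xcr1 and Siglech cells. 2 barcodes occurred in both libraries.

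Over both libraries Ly6e had 28621 UMIs, Ly6c2 8964, Ly6a 5836, Ly6d 5537, Ly6c1 719, Ly6i 189 and Ly6g 57. Of 50 listed genes of the Ly6/uPAR family, 46 were in the tables, 27 had a UMI and 14 had at least 50. On GRCm38, Ly6e, Ly6i, Ly6a, Ly6c1, Ly6c2 and Ly6g lie within 204 kb, from Ly6e at chr15:74955051-74959905 (plus strand) to Ly6g at chr15:75155240-75159126 (plus strand). Ly6i is at chr15:74979534-74983430, Ly6a at chr15:74994877-74998031, Ly6c1 at chr15:75044018-75048830 and Ly6c2 at chr15:75108158-75111970, all on the minus strand. Ly6d stands 191 kb before Ly6e, at chr15:74762056-74763620 on the minus strand. None of the 7 overlapped another annotated gene.

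The members differ in how far their reads can be told apart, which matters for every level below. The last 60 coding bases, stop codon included, are shown for the 5 most alike genes, 5′ to 3′, from the GENCODE transcripts, with capitals where a base differs from Ly6c2.
Ly6c2: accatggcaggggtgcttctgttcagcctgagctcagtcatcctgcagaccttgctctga
Ly6c1: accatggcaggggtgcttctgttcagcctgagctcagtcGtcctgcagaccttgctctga
Ly6a: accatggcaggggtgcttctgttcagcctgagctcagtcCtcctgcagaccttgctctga
Ly6g: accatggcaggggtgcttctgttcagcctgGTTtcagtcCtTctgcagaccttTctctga
Ly6i: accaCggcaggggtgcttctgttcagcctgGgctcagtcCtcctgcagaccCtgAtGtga
Ly6c1 and Ly6a each differed from Ly6c2 at 1 of these 60 bases, and Ly6g and Ly6i at 6. Over the whole coding sequence Ly6c1 and Ly6c2 were 97.7% identical, Ly6a and Ly6i 86.4%, and Ly6e and Ly6d no more than 56.4% identical to any other member. The sequenced read was 55 bases long. Of all windows of 55 bases in the last 400 bases of its protein-coding transcripts, Ly6c2 shared 31.2% exactly with Ly6c1, and 100% lay within 2 mismatches of it. Of the Ly6c1 windows, 26.7% occurred in a transcript of another gene, and of the Ly6a windows 6.55%. Of the Ly6i windows 2.08% were shared, with I830127L07Rik, and 24.9% of the Ly6a windows lay within 2 mismatches of Ly6c1. No window of Ly6d, Ly6e or Ly6g was shared. The separate counts of Ly6c1 and Ly6c2 are the most uncertain, and those of Ly6a and Ly6i are uncertain to a lesser degree.

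**Figure D1:**
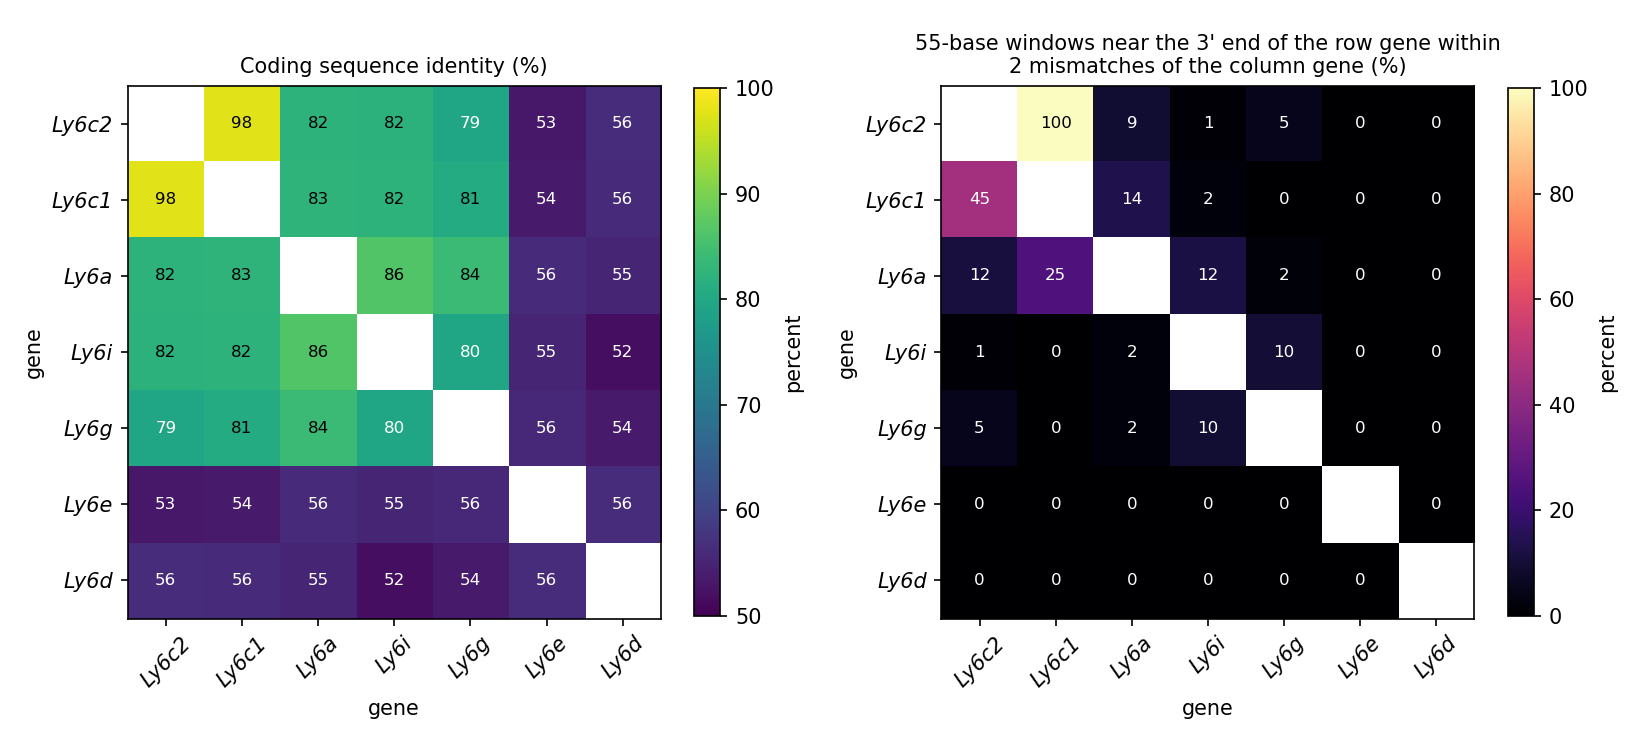
Likeness of the 7 genes: percent identity of the coding sequences (left) and, for each row gene, the percent of its 55-base windows near the 3′ end that lie within 2 mismatches of the column gene (right). Ly6c1 and Ly6c2 reach 97.7% identity, and every Ly6c2 window is within 2 mismatches of Ly6c1, while Ly6d and Ly6e stand apart from all the others.

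Ly6e was the broadest member. At least 1 Ly6e UMI was present in 83.2% of all female cells and 76.6% of all male cells, and every named class held it. Median depths were 3489.5 and 3008 UMIs, and the share of free RNA in these counts was not tested. Monocytes were high, at 2081 CPM (female) and 2339 CPM (male), with endothelial cells at 2066 and 1682 CPM, ILC2 (type 2 innate lymphoid cells) at 1978 and 1804 CPM, and B cells at 1820 and 1881 CPM. The intervals of these classes overlapped in part, so their order is not firm. Aldh1a2-high macrophages were lowest, at 142 CPM (female) and 255 CPM (male). Monocytes stood 14.6-fold above them in the female library (interval 10.7 to 20.5) and 9.17-fold in the male library (7.52 to 11.3).

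Within lymphocytes Ly6e followed subsets. In T cells (Cd3e) it was 1245 and 1268 CPM in the Trac cluster, against 550 and 562 CPM in the cluster led by Dapl1, Cd8b1 and Lef1. The ratio was 2.26 in both libraries. Dapl1 and Lef1 are genes of naive T cells and Cd8b1 is a gene of CD8 T cells. The comparison of these clusters thus does not separate maturity from CD8 lineage. In NK cells the cluster with Xcl1 and Itga1 had 1293 and 1297 CPM, and the cluster with Prf1 and Klra4, genes of conventional NK cells, had 450 and 543 CPM. That gave ratios of 2.87 (2.63 to 3.14) in the female library and 2.39 (2.14 to 2.68) in the male library. Both monocyte clusters were level with each other for Ly6e, with ratios of 1.08 (0.965 to 1.21) and 1.08 (0.956 to 1.22).

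**Figure D2:**
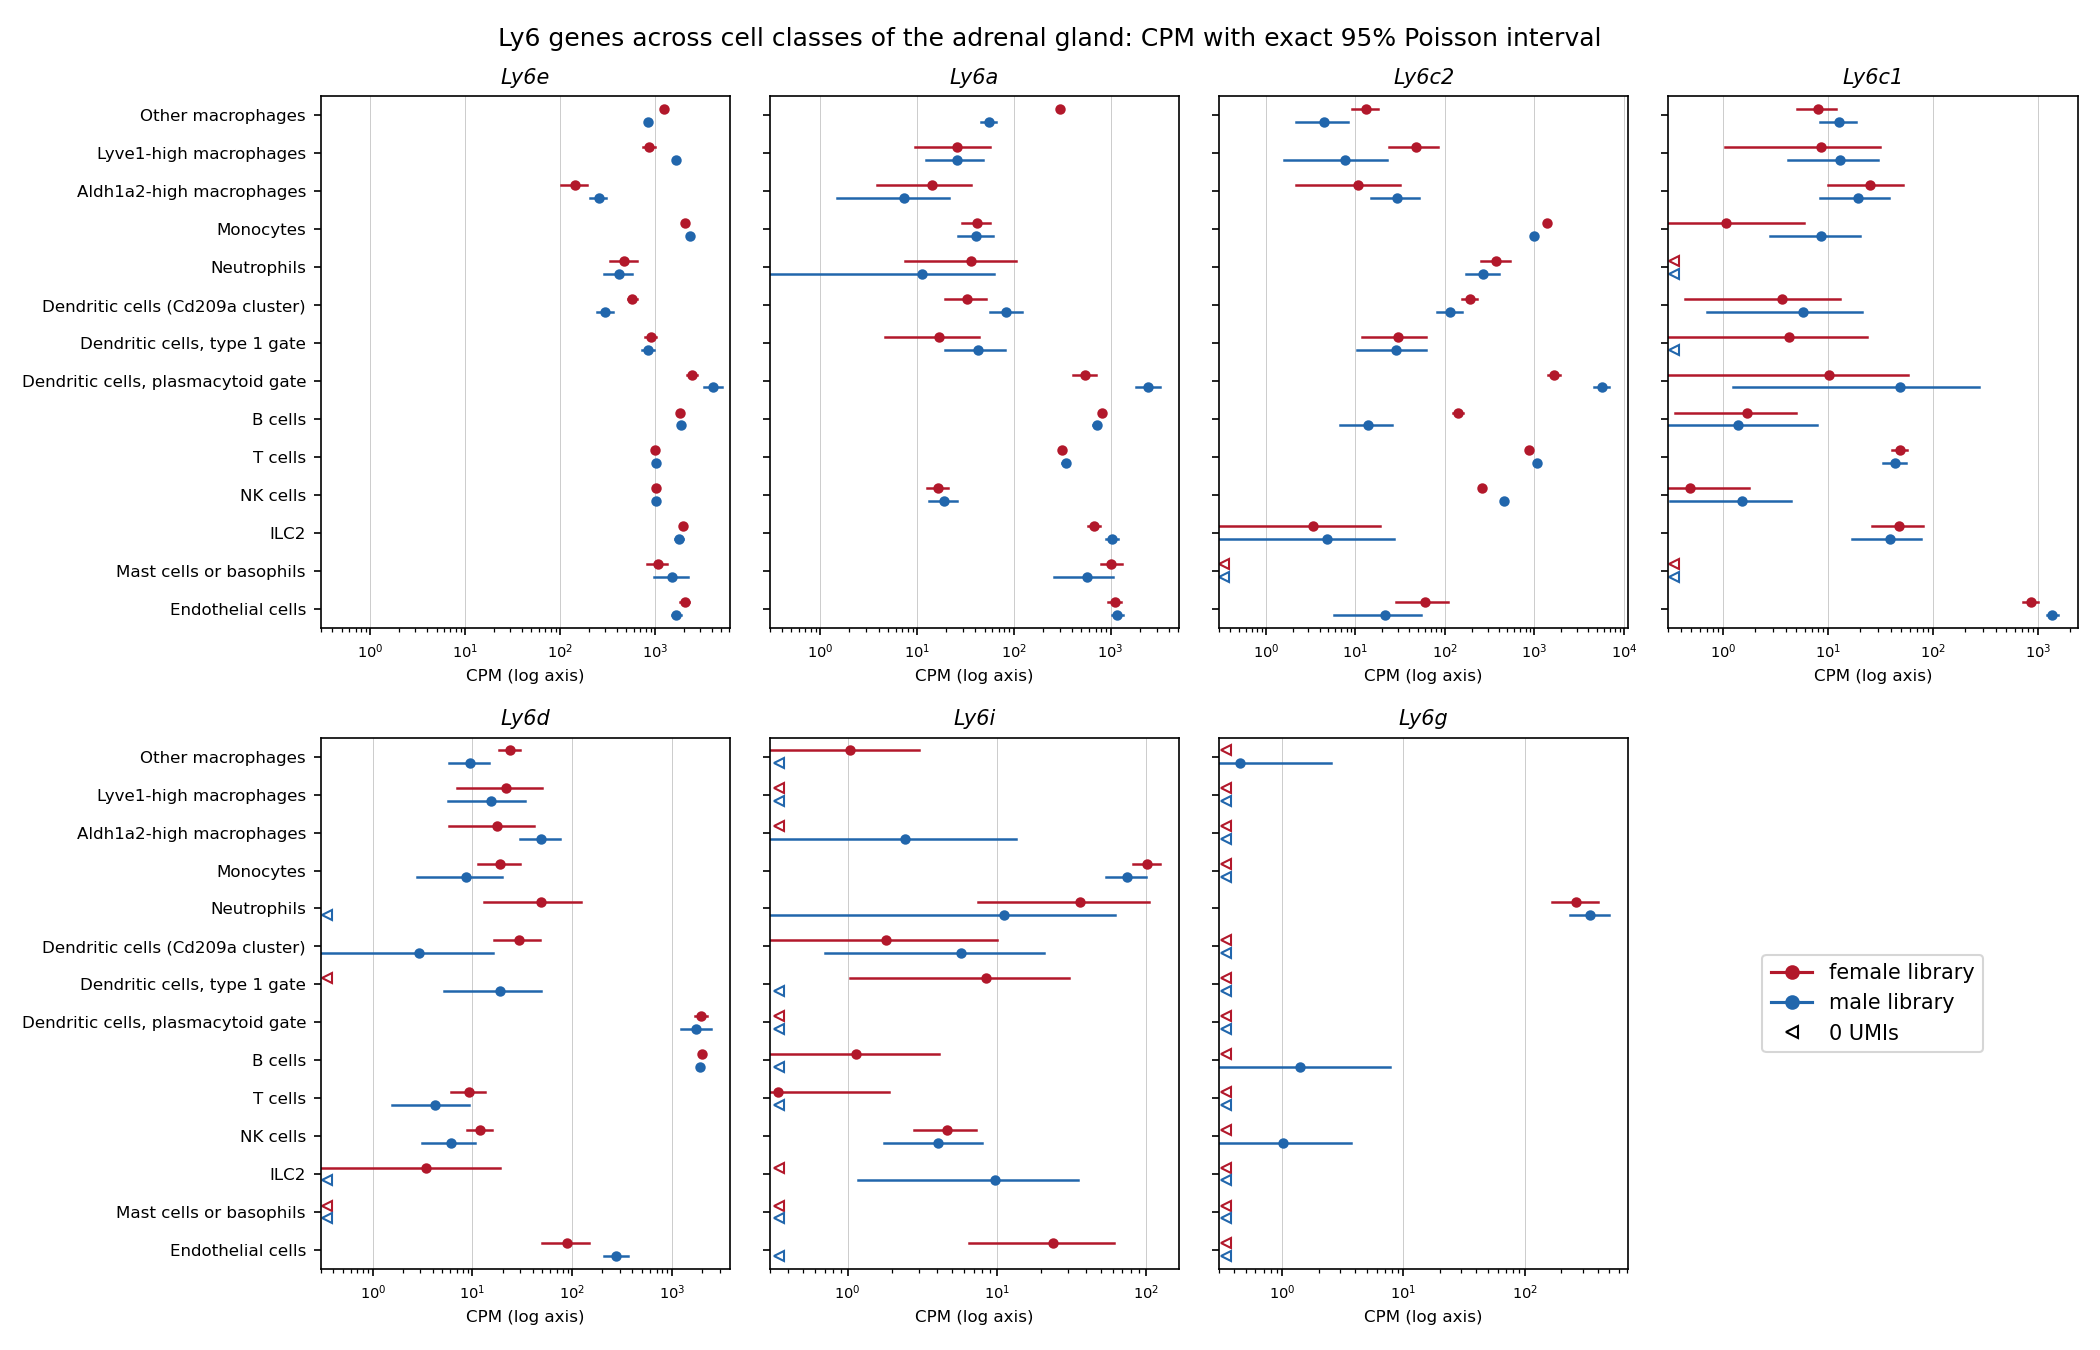
Levels of the 7 Ly6 genes (CPM, log axis) in 14 groups of cells, with points for the female and male libraries, bars for exact 95% Poisson intervals and open triangles for 0 UMIs. Ly6e is present in every group, Ly6d stands out in B cells and the plasmacytoid gate, Ly6c1 in endothelial cells, Ly6i in monocytes and Ly6g in neutrophils.

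Ly6a separated the female from the male library in other macrophages, which express Cd68 and Adgre1. The female library had 872 UMIs over 648 cells, or 302 CPM (interval 282 to 322). The male library had 123 UMIs over 535 cells, or 55.5 CPM (46.1 to 66.2). The ratio of female to male was 5.43 (4.49 to 6.62). At the study's stated mitochondrial ceiling of 1.2%, used only as an alternative, it was 12.3 (4.43 to 47.6), from 37 and 4 UMIs. Other alternatives lowered it. It was 3.83 (3.27 to 4.49) with classes from per-cell gates and 4.08 (2.79 to 6.13) after drawing 1000 UMIs from each cell. With cells weighted equally it was 4.07. The remaining alternatives stayed within the main interval. The share of cells with a Ly6a UMI was 29.0% in the female library and 11.6% in the male one, at median depths of 3955.5 and 3474 UMIs, and after drawing 1000 UMIs from each cell in 14.9% and 4.54%. In NK cells, a class with little Ly6a, the shares were 5.13% and 4.83% at median depths of 4109.5 and 4858 UMIs, and the levels 16.4 and 18.8 CPM. The male macrophage level was thus above the NK level by its interval, and the female level far above it.

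Ly6e moved the same way in other macrophages, by less. It was 1233 CPM in the female and 846 CPM in the male library, a ratio of 1.46 (1.38 to 1.54). In this class 4 of the 7 members had at least 50 UMIs, and 2 of them, Ly6a and Ly6d, differed by 2-fold or more between the libraries. Of all 7701 genes with that many UMIs, 1.83% did so. The median ratio over all genes lay at -0.02 on the log2 scale.

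The Ly6a difference was largest in the cluster led by AA467197, C1qa and Tmem119. There the female library had 464 CPM, from 704 UMIs, and the male library 59.4 CPM, from 66 UMIs, a ratio of 7.81 (6.06 to 10.2). The cluster led by Aif1, Wfdc17 and Cxcl14 had 196 and 75.7 CPM (2.58, 1.81 to 3.75), and the cluster led by Ms4a7, Slc40a1 and Mmp12 51.5 and 27.3 CPM (1.89, 1.01 to 3.71). The Ly6e ratio was also highest in the Tmem119 cluster, at 1.70 (1.58 to 1.84), against 1.13 (1.01 to 1.26) and 1.17 (1.01 to 1.35) in the others, whose intervals overlapped. After drawing 1000 UMIs per cell, 26.0% of the female cells of the Tmem119 cluster still held Ly6a, 11.7% with 2 or more UMIs, against 4.21% and 0.467% of the male cells. In the female library 15.9% of the Ly6a UMIs of other macrophages lay in the 5 richest cells, so the level was spread over many cells.

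Other macrophages were also split by their MHC class II RNA (Cd74 with H2-Eb1, H2-Ab1 and H2-Aa), at 9 UMIs per 1000, since these molecules present antigen and vary between adrenal macrophages. The low group held 164 female cells but 20 male cells. In the female library Ly6a was 525 CPM in the low and 226 CPM in the high group, 2.33-fold (2.03 to 2.66). The Tmem119 cluster, where Ly6a was high, held 119 of the 164 low and 146 of the 472 high female cells, and within it the levels were 594 and 383 CPM, 1.55-fold (1.33 to 1.80). The 20 male cells of the low group had 0 Ly6a UMIs, which allows up to 54.8 CPM, and the exact interval of the female to male ratio had its lower limit at 9.54. At a median of 2132.5 UMIs in these 20 cells, a cell without a UMI may still hold the RNA. Within the high group alone the female to male ratio was 3.94 (3.22 to 4.84), from 226 and 57.3 CPM. Ly6e was 1742 CPM in the low and 1058 CPM in the high group of the female library, and 1070 and 840 CPM in the male library. The ratios were 1.65 (1.54 to 1.76) and 1.27 (0.992 to 1.61), and the male interval includes equal levels.

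The other macrophage classes held little Ly6a. Lyve1-high macrophages had 6 female and 10 male UMIs, 25.9 and 25.8 CPM, and the interval of the ratio ran from 0.299 to 3.04. Aldh1a2-high macrophages had 4 and 3 UMIs, too few to read a ratio (0.331 to 13.3). Their Ly6e was lower in the female than in the male library: 871 and 1661 CPM in Lyve1-high cells (0.525, 0.446 to 0.615), and 142 and 255 CPM in Aldh1a2-high cells (0.558, 0.378 to 0.811). In male Aldh1a2-high cells 71.4% of the Ly6e UMIs came from 5 cells. Without the 5 richest cells of each library, an alternative chosen after the data were seen, the Aldh1a2-high ratio turned to 1.38 (0.799 to 2.38), from 113 and 82.0 CPM, and the Lyve1-high ratio was 0.456 (0.375 to 0.550). The Ly6e direction therefore differed between Lyve1-high and other macrophages with and without these cells, and that difference was not tested. In Lyve1-high cells summed T cell markers were 285 (female) and 36.2 (male) CPM, and neutrophil markers 332 and 511 CPM. B cell markers there were 608 and 759 CPM, and monocyte markers 1014 and 839 CPM. The part of such RNA in the Ly6e difference was not tested.

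**Figure D3:**
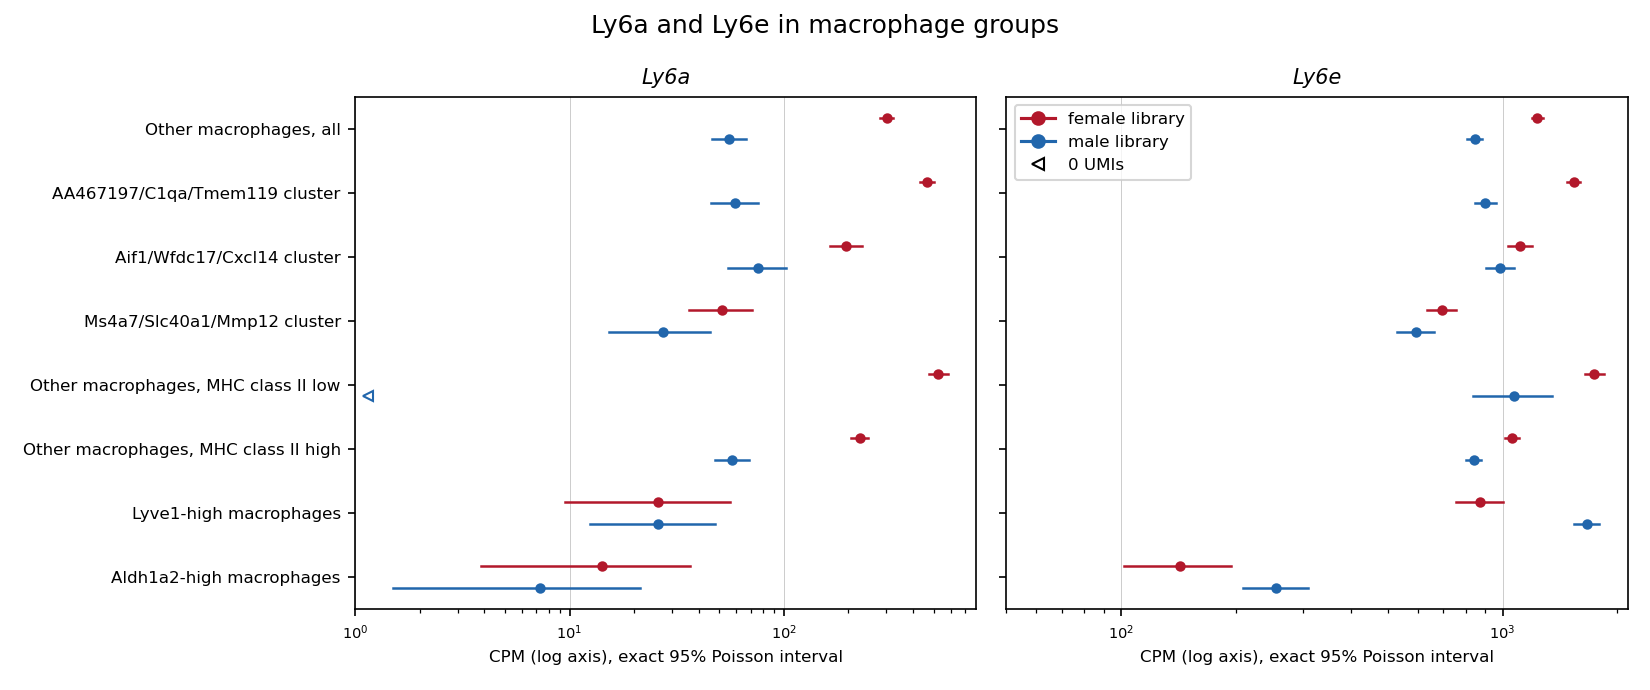
Ly6a (left) and Ly6e (right) in macrophage groups, in CPM on a log axis, with female and male libraries as points, exact 95% Poisson intervals as bars and an open triangle for 0 UMIs. The female library is higher for Ly6a in all 3 clusters of other macrophages, most in the Tmem119 cluster (464 against 59.4 CPM), and lower for Ly6e in Lyve1-high macrophages.

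Because Ly6a and Ly6e are interferon-inducible, a list of 36 interferon-induced genes was set beside them. In other macrophages 34 had at least 50 UMIs. Of these 1 was higher by 2-fold or more in the female library, the GTPase gene Iigp1 (2.07), and 1 was lower, the chemokine gene Cxcl10 (0.393). Of all genes of this class 1.83% differed by as much in either direction. The median ratio of the list was 1.08, against 0.986 over all genes. The 4 listed genes with most UMIs had ratios of 1.14 (Ifi27l2a), 1.27 (Ifitm3), 0.900 (Bst2) and 1.13 (Ifi204). Markers of other cells in these macrophages were also compared: summed B cell markers were 370 CPM in the female and 334 CPM in the male library, T cell markers 73.7 and 31.1 CPM, endothelial markers 65.4 and 80.3 CPM, neutrophil markers 235 and 116 CPM, and monocyte markers 463 and 179 CPM. Among the monocyte markers, Chil3 had 459 female and 4 male UMIs in these macrophages, or 159 and 1.80 CPM, and Ly6c2 was 13.1 and 4.51 CPM. The part of monocyte, neutrophil and T cell RNA in the Ly6a difference was not tested. Ly6a in monocytes was 41.4 CPM (29.4 to 56.6) in the female and 41.0 CPM (26.3 to 61.1) in the male library.

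Outside macrophages Ly6a was high in endothelial cells, at 1105 CPM (female) and 1178 CPM (male). Mast cells or basophils, 23 female and 6 male cells, had 1023 and 565 CPM, and ILC2 had 679 and 1033 CPM. A gate for plasmacytoid dendritic cells held 53 Ly6a UMIs in 27 female and 50 in 7 male cells, and the male UMIs all came from 5 cells or fewer. In ILC2 the female library was lower (ratio 0.657, 0.539 to 0.801), the opposite of other macrophages. ILC2 stood 41.3-fold (31.2 to 55.4) and 54.9-fold (38.6 to 80.1) above NK cells, another innate lymphoid class.

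B cells had 816 and 719 CPM of Ly6a. The cluster with Igkc, Mzb1 and Zcwpw1, genes of innate-like B cells, had 1128 and 1055 CPM, and the follicular cluster with Ighd and Fcer2a 463 and 457 CPM. The ratio between these clusters was 2.44 (2.17 to 2.74) in the female and 2.31 (1.92 to 2.78) in the male library, at median depths of 6283 against 2002.5 and 4952.5 against 1594 UMIs. After the draw to 1000 UMIs a Ly6a UMI was found in 64.1% and 55.1% of the innate-like cluster and 25.8% and 28.1% of the follicular one.

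T cells were also divided for Ly6a by gates for naive-like and effector-like cells. Gated on genes such as Ccl5, Cxcr6 and S100a4 against Lef1 and Ccr7, among others, effector-like T cells had 413 and 448 CPM and naive-like T cells 100 and 67.1 CPM. The naive-like to effector-like ratio was 0.242 (0.192 to 0.303) in the female and 0.150 (0.0960 to 0.224) in the male library. Without the 5 richest cells of each gate it was 0.155 and 0.083. With cells kept only at up to 1.2% mitochondrial UMIs it was 0.0972 and 0.322. That is the ceiling the study states, but applied to these counts it left 333 female and 366 male barcodes, far fewer cells than the study kept, so the stated value may be on another scale. Among effector-like cells, those gated as CD4 had 644 and 444 CPM and those gated as CD8 110 and 230 CPM, a ratio of 5.85 (4.08 to 8.58) and 1.93 (1.29 to 2.91). The pooled naive-like gate mixed CD4 and CD8 cells, which differed. CD8 naive-like cells, 115 female and 46 male, had 18.7 and 14.1 CPM, from 10 and 3 UMIs, and their ratio to CD8 effector-like cells was 0.170 (0.0753 to 0.348) and 0.0615 (0.0122 to 0.191). CD4 naive-like cells, 34 female and 10 male, had 173 and 279 CPM, from 20 and 9 UMIs. Their ratio to CD4 effector-like cells was 0.268 (0.160 to 0.427) in the female library and 0.627 (0.273 to 1.27) in the male library, where the interval includes equal levels. A further 22 female Ly6a UMIs came from 2 gamma delta cells of the naive-like gate. No member of T cells differed by 2-fold between libraries (0 of 4 with 50 UMIs), where 0.967% of all genes did.

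Ly6c2 followed the subdivision of monocytes for which Ly-6C is used as a surface marker. Classical monocytes are recruited from blood into inflamed tissue, and nonclassical monocytes patrol vessels. The cluster led by Chil3 had 1683 CPM in the female and 1285 CPM in the male library. The cluster led by Ace and Nr4a1 had 89.0 and 84.4 CPM. The ratios were 18.9 (11.6 to 33.2) and 15.2 (8.65 to 29.7). When the cells were gated one by one (classical: Ccr2, Chil3 and others; nonclassical: Ace, Treml4, Cd300e and others), the ratio was 7.31 (5.44 to 10.0) in the female library and 22.0 (12.5 to 42.9) in the male library. Of the female nonclassical gate's 46 UMIs, 82.6% lay in 5 cells. Without the 5 richest cells of each gate the female ratio was 30.0 (15.1 to 69.6), from 907 and 8 UMIs. The male ratio was then 176 (31.3 to 6956), from 382 and 1 UMIs. With the mitochondrial ceiling at 1.2% the female ratio was 2.14 (1.46 to 3.26) and the male ratio 36.5 (6.49 to 1449).

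Over all monocytes Ly6c2 was 1379 CPM in the female and 993 CPM in the male library, a ratio of 1.39 (1.26 to 1.53). Cells with a UMI were 55.1% and 43.3% of the class. The classical gate held 181 of 296 female and 90 of 180 male monocytes, and within it Ly6c2 was 1721 and 1494 CPM, with an interval of the ratio from 1.04 to 1.28. With monocytes chosen by per-cell markers and not by clusters the ratio over all monocytes was 1.05. No member differed by 2-fold over all monocytes (0 of 4), where 1.96% of all genes did. Within the Chil3 cluster 1 of 3 members did, Ly6i, with 50 female and 10 male UMIs and a ratio of 2.90 (1.45 to 6.42), where 2.41% of all genes did, and in the classical gate its ratio was 2.49, from 38 and 8 UMIs, with an interval above 1.

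Ly6i ran the other way. It was 256 and 239 CPM in the Ace cluster and 65.5 and 22.6 CPM in the Chil3 cluster. The Ace cluster was 3.91-fold higher (2.56 to 5.95) in the female and 10.6-fold higher (5.11 to 24.0) in the male library, and the per-cell gates gave 4.84 (3.12 to 7.57) and 8.87 (4.03 to 22.2). Monocytes held 73.3% of female and 75.9% of male Ly6i UMIs, 96 of 131 and 44 of 58. Ly6c2 and Ly6i were found together in 30 of the 57 female and 6 of the 33 male monocytes with Ly6i. Conventional NK cells (Prf1 cluster) had a lower Ly6i level of 14.1 and 5.69 CPM, from 18 and 4 UMIs.

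**Figure D4:**
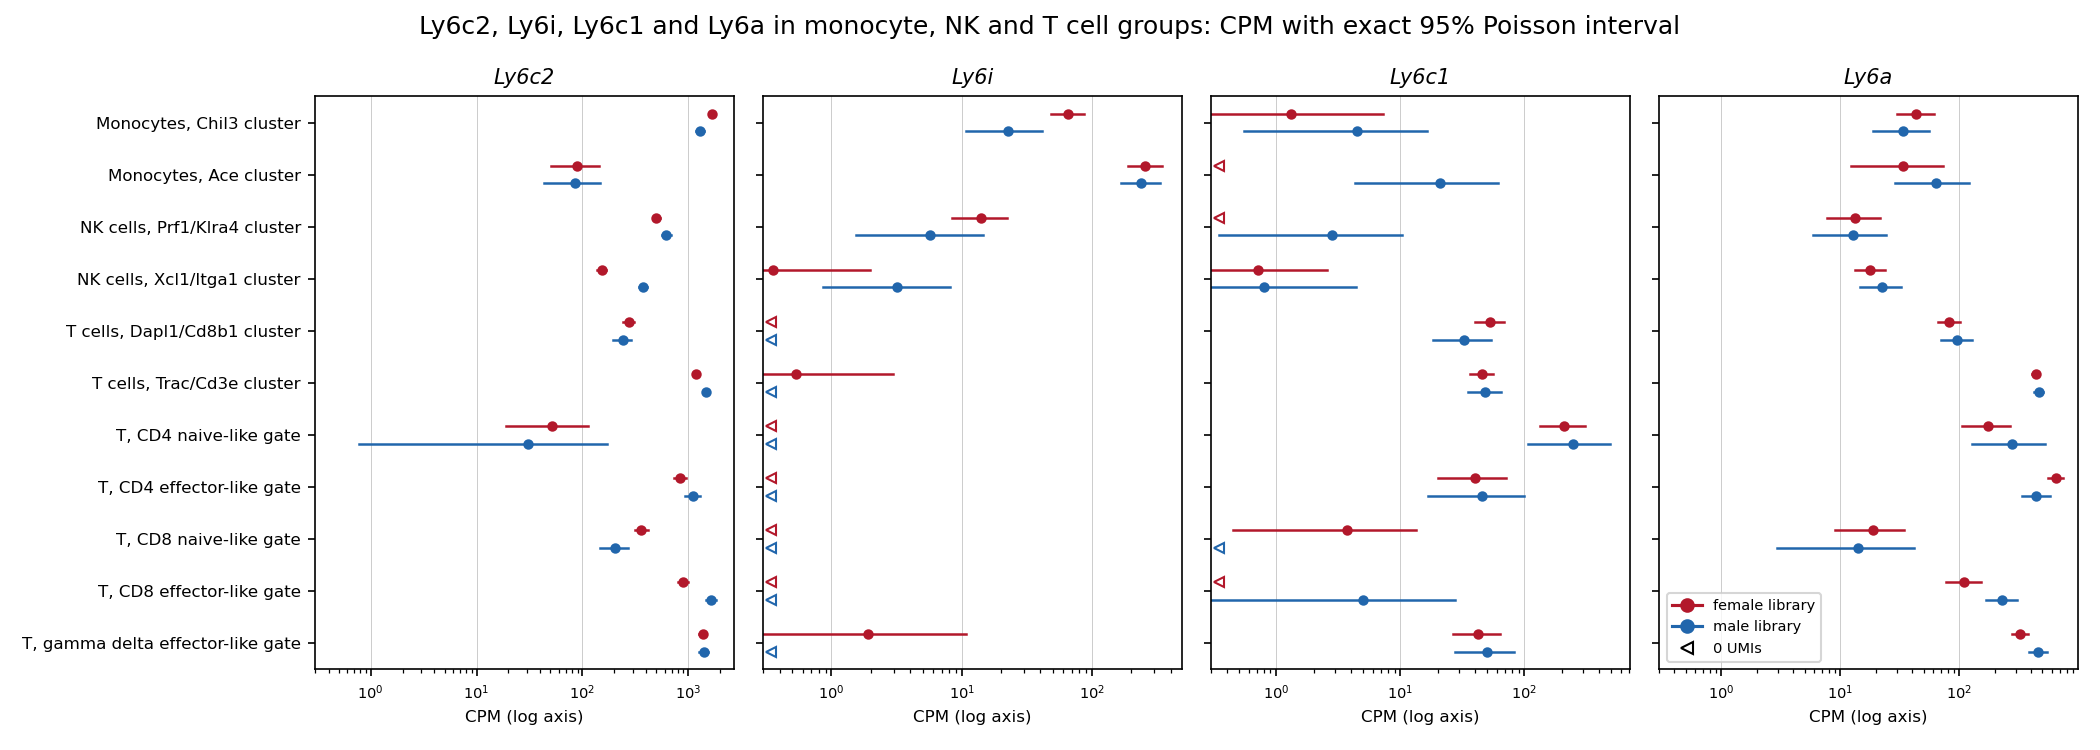
Ly6c2, Ly6i, Ly6c1 and Ly6a (CPM, log axis) in clusters and gates of monocytes, NK cells and T cells, with points for each library, exact 95% Poisson intervals and open triangles for 0 UMIs. Ly6c2 is high in the Chil3 monocyte cluster and Ly6i in the Ace cluster, and Ly6c1 is highest in CD4 naive-like T cells.

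T cells, 18.2% of female and 14.9% of male cells, held 45.2% of the female and 45.4% of the male Ly6c2 UMIs. Monocytes, 8.01% and 7.35% of cells, held 23.2% and 17.3%. The T cell level was 870 and 1080 CPM, beside 1379 and 993 CPM in monocytes. The Trac cluster had 1196 and 1486 CPM and the Dapl1 cluster 276 and 240 CPM, a ratio of 4.34 (3.83 to 4.93) and 6.20 (5.11 to 7.60). Effector-like CD8 cells had 896 and 1633 CPM, effector-like CD4 cells 841 and 1103 CPM, and gamma delta T cells 1332 and 1406 CPM. Naive-like CD4 cells had 6 UMIs in the female and 1 in the male library, but naive-like CD8 cells had 361 and 203 CPM, from 193 and 43 UMIs.

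In NK cells Ly6c2 was lower in the female library, 261 against 462 CPM (0.566, 0.518 to 0.619). Over the whole NK cell class no member passed 2-fold (0 of 4), and 0.848% of all genes did. The median ratio over all NK cell genes was -0.10 on the log2 scale. In the Xcl1 cluster the Ly6c2 levels were 153 and 373 CPM, a female to male ratio of 0.410 (0.359 to 0.468). In the Prf1 cluster they were 501 and 621 CPM, a ratio of 0.807 (0.713 to 0.913). The Prf1 cluster was 3.28-fold (2.90 to 3.71) and 1.67-fold (1.46 to 1.90) above the Xcl1 cluster. By per-cell gates (conventional: Eomes, Klra4 and others; ILC1-like: Itga1, Cxcr6 and others), the ratio was 1.92 (1.67 to 2.22) in the female library, and in the male library 1.14 (0.991 to 1.32), an interval that includes equal levels. With the mitochondrial ceiling at 1.2% the female ratio turned to 0.394, from 28 and 24 UMIs, and with classes gated cell by cell the male ratio was 0.928. ILC2 had 1 Ly6c2 UMI in each library.

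In B cells Ly6c2 had 248 UMIs in the female library, or 140 CPM, and 10 UMIs in the male library. Of the 248 female UMIs, 222 came from 5 cells, and 4 of these 5 held the plasma cell gene Jchain, with 2947 Jchain UMIs together. Their median depth was 15761 UMIs, against 2194 in the other female B cells, and they had 40.8 plasma cell marker UMIs per 1000 against 1.90. Over all B cells, plasma cell markers were 3523 CPM in the female and 11546 CPM in the male library. Ly6c2 was the 1 of 4 members past 2-fold in B cells, where 1.78% of all genes were. A per-cell gate for plasmacytoid dendritic cells (Siglech, Ccr9 and others) held 27 female and 7 male cells, in which Ly6c2 was 1662 and 5667 CPM and was found in 81.5% and 85.7% of cells. Of the UMIs of this gate, 62.1% and 98.3% came from 5 cells.

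Ly6c1, the near copy of Ly6c2, had another distribution. Endothelial cells had 848 CPM (142 UMIs) in the female and 1369 CPM (258 UMIs) in the male library. They were 1.35% and 2.29% of cells but held 42.0% and 67.7% of all Ly6c1 UMIs. These shares were 68.4% and 66.7% under the 1.2% mitochondrial ceiling, from 13 and 34 UMIs. Without the 5 endothelial cells richest in Ly6c1 of each library, and with all other cells kept, they were 30% and 59%. Leaving out cells of this class alone cannot raise its share. The female to male ratio of the level was 0.619 (0.501 to 0.763). In the 5 cells richest in Ly6c1, macrophage markers were 3.88 (female) and 19.6 (male) UMIs per 1000. Other endothelial cells had 9.98 and 7.89 per 1000, beside 7.97 and 8.94 of endothelial markers. The part of macrophage RNA in these levels was not tested. Ly6c2 in endothelial cells was 59.7 and 21.2 CPM, from 10 and 4 UMIs. Conversely, monocytes had 1 female and 5 male Ly6c1 UMIs beside 1300 and 581 of Ly6c2. Ly6a and Ly6c1 were both high in endothelial cells, as was Gpihbp1, a neighbouring Ly6 gene whose product carries lipoprotein lipase into capillaries, at 788 and 833 CPM. Of 4 members with 50 UMIs in endothelial cells 1, Ly6d, passed 2-fold, where 3.00% of all genes did.

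T cells, at 48.3 and 43.3 CPM, held 41.7% of the female Ly6c1 UMIs, level with endothelial cells, and 61 of the 381 male ones. By gate it was 91.8 and 85.1 CPM in CD4 cells, from 36 and 14 UMIs, against 2 and 1 UMIs in CD8 cells, ratios of 41.8 (10.8 to 358) and 36.6 (5.57 to 1548). T cells between gates had 71.4 and 60.3 CPM, from 77 and 31 UMIs, and gamma delta T cells 48.4 and 49.8 CPM, from 26 and 15 UMIs. Unlike Ly6c2, Ly6c1 was higher in naive-like than in effector-like CD4 cells. The levels were 208 against 40.0 CPM in the female library (5.18, 2.44 to 11.7) and 248 against 45.9 CPM in the male library (5.39, 1.64 to 18.8). The naive-like CD4 levels rest on 24 and 8 UMIs, and 83.3% and 100% of these lay in 5 cells or fewer.

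The upstream sequences of Ly6c1, Ly6c2 and Ly6g, 3 alike genes whose highest levels among the named classes were not in the same class, are shown for comparison. The genes were not exclusive to those classes: 34 of 78 female and 22 of 38 male T cells with Ly6c1 also held Ly6c2. The sequences are the 250 bases before the gene start as RefSeq places it (GRCm38.p6), with GGAAGT, letters that ETS-type factors can bind, in capitals. The 4 other members had no entry in the table.
Ly6c1: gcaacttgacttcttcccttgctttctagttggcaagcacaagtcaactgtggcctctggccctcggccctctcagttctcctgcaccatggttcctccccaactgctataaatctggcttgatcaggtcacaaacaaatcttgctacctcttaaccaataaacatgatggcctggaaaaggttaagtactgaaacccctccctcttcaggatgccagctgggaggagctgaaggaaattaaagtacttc
Ly6c2: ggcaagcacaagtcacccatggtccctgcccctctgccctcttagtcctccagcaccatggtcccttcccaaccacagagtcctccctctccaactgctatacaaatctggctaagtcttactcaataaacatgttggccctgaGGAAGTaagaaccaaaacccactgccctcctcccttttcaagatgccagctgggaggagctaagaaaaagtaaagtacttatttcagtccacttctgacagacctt
Ly6g: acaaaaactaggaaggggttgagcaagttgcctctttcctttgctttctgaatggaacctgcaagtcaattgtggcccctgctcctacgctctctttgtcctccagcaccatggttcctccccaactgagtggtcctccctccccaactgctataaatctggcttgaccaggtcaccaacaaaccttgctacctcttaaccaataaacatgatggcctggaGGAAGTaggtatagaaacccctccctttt
They lie at chr15:75048838-75049087 (Ly6c1, minus strand), chr15:75111972-75112221 (Ly6c2, minus strand) and chr15:75155011-75155260 (Ly6g, plus strand). For Ly6g the annotation used for the gene positions above starts at 75155240, inside the last bases of its window. Ly6c2 and Ly6g held GGAAGT once each on the gene's strand, 106 and 29 bases before the RefSeq start, and Ly6c1 did not hold it on either strand. Of all 32851 such windows, 19.7% held it on either strand. The letters TTCNNNGAA, which STAT factors can bind, and GAAA followed after any 2 bases by GAAA, which interferon regulatory factors can bind, were in none of the 3 on either strand, and in 7.02% and 2.98% of all windows. A match describes the letters and does not show binding.

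Ly6d was the B cell member. B cells had 2008 CPM (3553 UMIs) in the female and 1899 CPM (1361 UMIs) in the male library, and 91.1% and 87.6% of B cells had a UMI, against 3.76% and 1.88% of NK cells. They held 88.6% (87.6 to 89.6) and 89.2% (87.5 to 90.7) of all Ly6d UMIs, or 58.5% and 78.5% in the few cells under the 1.2% mitochondrial ceiling. The female to male ratio was 1.06 (0.993 to 1.13), with 1 inside the interval. The follicular cluster had 2437 and 2276 CPM and the innate-like cluster 1628 and 1415 CPM, a ratio of 1.50 (1.40 to 1.60) and 1.61 (1.43 to 1.81). Ly6a and Ly6d thus ranked these B cell clusters in opposite order.

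The plasmacytoid gate also held Ly6d, at 1961 and 1759 CPM, in 51.9% of 27 female and 57.1% of 7 male cells, from 190 and 36 UMIs, most of them in 5 cells or fewer of each library. In T cells the level was low, at 9.25 and 4.26 CPM, as in NK cells, at 12.0 and 6.10 CPM. The female to male ratio was 2.48 (1.50 to 4.26) in other macrophages, from 23.5 and 9.48 CPM, 1.97 (1.03 to 4.06) in NK cells and 2.17 (0.879 to 6.44) in T cells. It was 1.39 (0.336 to 5.47) in Lyve1-high and 0.366 (0.107 to 1.01) in Aldh1a2-high macrophages, where the UMIs were few. Summed B cell markers in other macrophages were 370 and 334 CPM, and among them Cd79a, part of the B cell receptor, was 20.1 and 9.02 CPM, from 58 and 20 UMIs, higher in the female library as Ly6d was. B cells were 13.9% of female and 10.9% of male cells, and the share of free B cell RNA in these low levels was not tested. In endothelial cells Ly6d was 89.6 and 276 CPM. All 15 female UMIs there lay in 3 cells and all 52 male UMIs in 5 cells.

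Neutrophils held nearly all Ly6g, with 22 of 22 female UMIs (100%, 84.6 to 100) and 31 of 35 male UMIs (88.6%, 73.3 to 96.8). The 4 other male UMIs were in NK cells (2), B cells (1) and other macrophages (1). Neutrophils were 47 female and 50 male cells with S100a8, and Ly6g was 266 and 348 CPM in them. A UMI was present in 8 of 47 and 5 of 50 neutrophils, at median depths of 1649 and 1654 UMIs, and all male neutrophil UMIs came from 5 cells. Neutrophils without a UMI were thus the majority, and at this depth that does not show that they lack the RNA. Ly6c2 in neutrophils was 374 and 270 CPM, and 0 of 3 members with 50 UMIs passed 2-fold between libraries, where 4.19% of all genes did.

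Of the other Ly6/uPAR genes with at least 50 UMIs, Plaur, the urokinase receptor, had 663 and Gpihbp1 382, followed by Ly6g5b (105), Ly6k (94), Lynx1 (81), Cd59a (74) and Lypd6b (53). Plaur was 205 and 371 CPM in neutrophils, 160 and 151 CPM in Aldh1a2-high macrophages, 138 and 145 CPM in monocytes and 113 and 42.4 CPM in endothelial cells, but 26.6 and 16.7 CPM in other macrophages. The pattern of the members over 17 groups of cells in both libraries (34 points, Pearson r of log2(CPM + 10) over 8685 genes ranked) was most like Iglc3 (0.933), Snn (0.913) and Fcrla (0.908) for Ly6d, and like Ehd3 (0.901), Rgcc (0.876) and Eva1b (0.876) for Ly6c1. For Ly6a the most alike were Smco4 (0.766), Mast4 (0.688) and Ppp1r11 (0.675), for Ly6c2 Vrk3 (0.680), Epsti1 (0.639) and Cd52 (0.627), and for Ly6e Camk2d (0.605), Foxn3 (0.585) and Serinc3 (0.571). Between members r was 0.537 for Ly6a and Ly6e, and -0.13 for Ly6c1 and Ly6c2. The points share libraries and classes, and these values describe them only.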

How the data were processed

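The deposited values are whole counts of UMIs per gene and barcode, which the authors made with Cell Ranger 4.0.0, keeping barcodes with DropletUtils 1.4.3; per the submitters' processing notes the build was mm10. Reads matching several genes equally are not counted by this pipeline, which bears on Ly6c1 and Ly6c2. The tables held 3963 female and 2685 male barcodes, each with at least 500 UMIs. Barcodes with at least 200 genes and at most 15% mitochondrial UMIs were kept; the ceiling of 1.2% that the study states left 333 and 366 barcodes here, far fewer than the study kept, so its scale is in doubt and it served only as an alternative. Scrublet in scanpy 1.11.5 marked 1 and 8 doublets by its own threshold, so the highest-scoring 0.8% per 1000 barcodes were removed (126 and 58 barcodes). Clustering used Seurat (version 5.3.0, with sctransform version 0.4.2 and R version 4.3.3; 20 principal components, resolution 1), with Ly6/uPAR, sex-linked and MHC class II genes held out of the features.

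A cluster was named where at least 3 markers of a type were raised 2-fold and found in 20% of its cells, and its 10 leading genes held a marker of that type and no more of another type. Cells were gated within classes where 1 marker list led another by 2 UMIs, and the others were left between gates. A count of 0 was bounded by its exact interval. Genes with 50 UMIs in a class were compared between the libraries. Cells are not replicates, and no p-value was computed. The members, marker lists and comparisons were chosen with earlier results of these data known. The text names all 7 members, other Ly6/uPAR genes with 50 UMIs, the 4 interferon-induced genes with most UMIs, and for members with 200 UMIs the 3 genes of highest r; Iigp1 and Cxcl10 were named after their values were seen. The ratio calculation was tested on simulated Poisson counts, which do not hold the uneven spread of UMIs over cells seen in the data.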

Additional observations from a re-analysis of the deposited data

Results flagged for a closer look

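For some members the female to male ratio lay above 1 in some classes and below 1 in others, with counting intervals on each side of 1. With 1 library per sex none of these differences between classes was tested.

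For Ly6e the ratio was 1.94 in dendritic cells of the Cd209a cluster, 1.46 in other macrophages and 1.23 in endothelial cells, against 0.525 in Lyve1-high macrophages, 0.558 in Aldh1a2-high macrophages and 0.89 in monocytes. For Ly6a it was 5.43 in other macrophages and 1.14 in B cells, against 0.657 in ILC2 and 0.559 in 32 female and 15 male cycling cells. For Ly6c2 it was 1.39 in monocytes, 1.66 in Cd209a dendritic cells and 10 in B cells, against 0.566 in NK cells, 0.805 in T cells and 0.262 in cycling cells; 5 cells held 89.5% of the female B cell UMIs and 95.6% of the male cycling cell UMIs. For Ly6d it was 2.48 in other macrophages and 1.97 in NK cells, against 0.325 in endothelial cells, where 3 female and 5 male cells held every UMI.

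Several of these ratios rested on few cells. Without the 5 richest cells of each library, chosen after the data were seen, Ly6e in Aldh1a2-high macrophages turned to 1.38 (0.799 to 2.38) and Ly6a in cycling cells to 1.38 (0.517 to 4.64). Ly6c2 in B cells became 3.44 (1.05 to 17.8) and in cycling cells 0.460 (0.151 to 1.54). Ly6d became 6.98 (1.77 to 60.4) in NK cells and 4.58 (1.91 to 13.3) in other macrophages. In Cd209a dendritic cells 32 female and 0 male Ly6c2 UMIs were left, and in endothelial cells no Ly6d UMI was left in either library. The other ratios of this kind moved by less than 1.5 times and kept their direction.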

How the results depend on the processing

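Of 143 values under the alternatives, 100 lay within the counting interval of the main value, 42 moved beyond it and 1 reversed, and the cause was not tested. Under a mitochondrial ceiling of 1.2%, the study's stated value, whose scale is in doubt since it left 333 and 366 barcodes, the Ly6a female to male ratio in other macrophages was 12.3, from 37 and 4 UMIs, that of Ly6e 1.85, the female Ly6c2 ratio of classical to nonclassical monocytes 2.14, and the female Ly6c2 ratio of conventional to ILC1-like NK cells turned to 0.394. The Ly6a naive-like to effector-like ratio was 0.0972 and 0.322, the Ly6d share in B cells 58.5% and 78.5%, the female Ly6c1 share in endothelial cells 68.4% and the male Ly6g share in neutrophils 100%. A 5% ceiling gave 5.4 for the female monocyte ratio, 82% and 91.5% for Ly6d and 35.9% and 62.2% for Ly6c1. Removing doublets at 2 times the rate gave 92.1% for female Ly6d and 62.3% for male Ly6c1. With classes from per-cell gates, Ly6a was 3.83, Ly6c2 in monocytes 1.05, the male NK ratio 0.928, female Ly6d 86% and male Ly6c1 57%. Thinning each cell to 1000 UMIs gave 4.08 for Ly6a and 1.32 for Ly6e, 2.4 and 1.42 for the NK ratios, and 91.8% and 94.6% for Ly6d. Weighting cells equally gave 4.07, 1.37, 2.3, 1.5, 90.9% and 93% in the same order. Another alternative, chosen after seeing the data, left out the 5 cells with most UMIs of the gene in each group. The monocyte ratios were then 30 and 176, the latter from 382 and 1 UMIs, and the NK ratios 2.57 and 1.49. The T cell ratios were 0.155 and 0.083. For shares the cells were left out of the named class only, which cannot raise its share. This gave 30% and 59% for Ly6c1. For male Ly6g it gave 0%, because all 31 neutrophil UMIs lay in 5 cells.

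No paired analysis was possible because each sex had 1 library, and for the same reason no library could be left out in turn. The male NK ratio under the 1.2% ceiling could not be computed. Ly6g and Ly6i rest on 57 and 189 UMIs, so their absence from a cell is not shown at this depth, and the split of UMIs between Ly6c1 and Ly6c2 depends on the few bases that separate them.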

Other observations

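The unnamed cluster of shallow cells, 67 female and 138 male, held Ly6c2 at 689 CPM in the female and 106 CPM in the male library, all of it in 5 cells or fewer of each. Ly6d in the same cells was 469 CPM in the female library and 17.6 CPM in the male library, likewise in 5 cells or fewer.

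In the per-cell gate for type 1 dendritic cells (Xcr1, Clec9a and others; 44 female and 38 male cells), Ly6e was 902 and 852 CPM, while the type 2 gate (Cd209a, Clec10a and others; 91 and 67 cells) had 459 and 265 CPM. Ly6a and Ly6c2 were low in the type 1 gate, with 4 and 9 UMIs of Ly6a and 7 and 6 of Ly6c2.

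In monocytes the list of interferon-induced genes had a median female to male ratio of 1.21 over 28 genes with 50 UMIs, against 0.984 over all genes. Of these 28, 2 differed by 2-fold or more, Ifit1 (3.31) and Oas1a (2.48), both higher in the female library, where 1.96% of all monocyte genes differed by as much. In T cells the median was 0.999 over 28 genes, and in B cells 0.983 over 18.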
